A study of Sus scrofa with 6 samples.

Results

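Pyruvate handling and the tricarboxylic acid cycle were examined through 36 genes, of which 31 were measured by a probe set whose single gene symbol in the platform's annotation was that gene. These 31 genes had 40 probe sets, out of 6765 genes and 10069 probe sets with a single symbol on the array. PDHX, PDK1, PDK2, PDP1 and ACLY matched no probe set by this rule and were not analysed here. Gene expression had been measured on Affymetrix porcine arrays in oocytes of adult sows and of prepubertal gilts, 3 arrays in each group, which the labels call biological replicates. In both groups oocytes were aspirated from follicles of 2 to 6 mm, matured in culture for 42 to 44 h, stripped of cumulus cells with hyaluronidase and vortexing, and checked for the first polar body, so that they had reached metaphase II. By the labels, oocytes of adults are competent to develop and those of prepubertal females are not. No breed and no number of animals or oocytes per array is stated, and the p-values refer to the spread among these arrays alone.

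Pyruvate enters mitochondria through a carrier made of MPC1 and MPC2 and is oxidised to acetyl-CoA by the pyruvate dehydrogenase complex, whose parts are encoded by PDHA1 and PDHB (the decarboxylase, E1), DLAT (the acetyltransferase, E2) and DLD (the shared dehydrogenase, E3). Pyruvate dehydrogenase kinases (PDK) switch the complex off by phosphorylating its E1 alpha subunit, and a phosphatase switches it on again. Oocytes draw much of their energy from pyruvate that cumulus cells supply, and burn it in this cycle.

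The values are MAS5 signals, a linear measure of brightness with 1 value per probe set and array. Differences are prepubertal minus adult on the scale of log2(signal + 16), given ± the standard error (SE) of a limma fit to 12000 tested probe sets, with p-values adjusted over all of them by the Benjamini-Hochberg method. The brightest probe set of a gene stands for it unless stated, and no difference in level between genes is read from brightness, since probes differ in yield. The filter on dim probe sets, a mean at or above the array-wide median, which corresponds to a signal of about 16, kept 29 of the 40 probe sets and 26 of the 31 genes. The dim genes were PDK4, IDH3B, IDH3G, OGDH and ME3, with signals from 0.94 to 19.3.

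As deposited the arrays were not at one level: their 2% trimmed means were 121 to 159.9 in adult and 105 to 131 in prepubertal oocytes, and the median difference of all tested probe sets was −0.20, with 74.8% of them below 0. After quantile normalization, which gives all arrays one distribution, that median was −0.01. The difference of a tested member is therefore given both ways, and a value near −0.20 as deposited lies near the median of all tested probe sets. Egg genes marked both groups. The 6 oocyte markers measured of 10 were all above the filter, with a summed signal of 4919.5 to 5604 in adult and 4630.1 to 5588 in prepubertal arrays. Marker lists were tested on their mean log2 level and not on these sums, with a 2-sided exact permutation test whose smallest possible p is 0.1. The mean of the oocyte markers was 8.94 in adult and 8.78 in prepubertal oocytes (exact p = 0.4). Of the cumulus and granulosa markers 13 of 16 were measured and 6 were tested, with sums of 397 to 501 in adult and 368 to 415 in prepubertal arrays and mean log2 levels of 5.25 and 5.17 (exact p = 0.3), while PTX3, TNFAIP6, CYP19A1, FSHR, AMH, CYP11A1 and STAR were below the filter. Of the blood and immune markers 4 of 6 were measured, with overlapping sums of 284 to 480.2 and 156 to 393. Their mean log2 levels were 5.86 and 5.44 (exact p = 0.1). On that mean level all prepubertal arrays lay below all adult ones, which the smallest possible p requires. The beta-globin gene HBB was the 1 tested and PTPRC, CD3E and CD14 were dim. Theca and stroma markers (6 of 7 measured, 3 tested) summed to 83.9 to 146 and 72.1 to 111, with mean log2 levels of 5.02 and 4.82 (exact p = 0.3). The 4 endothelial ones (2 tested) summed to 78.5 to 99.8 and 71.1 to 92.5, with mean log2 levels of 5.08 and 5.02 (exact p = 0.6). Single markers differed more than these means, and those of oocytes in both directions. GDF9 was at −0.58 ± 0.27 as deposited and −0.31 after quantile normalization, with overlap. NPM2 was at −0.31 without overlap, and at −0.14 with overlap. BMP15 and ZP2 overlapped as deposited, at 0.18 and 0.07. After quantile normalization they were at 0.42 and 0.35, with all prepubertal arrays above all adult ones (adjusted p = 0.389 and 0.29 in limma). All prepubertal arrays were lower for the stroma marker COL3A1, at −0.85 ± 0.30 and −0.75 after quantile normalization. The same held for the cumulus marker FST (−0.41 and −0.19). All prepubertal arrays were higher for LHCGR of that list, at 0.52 ± 0.33 and 0.57 after quantile normalization. Its signals were 1.20, 19.2 and 20.9 in adult and 29.1, 22.7 and 21.8 in prepubertal arrays, near the filter. With single arrays left out its difference as deposited ran from 0.17 to 0.72. The other tested stroma markers, COL1A2 and DCN, were at 0.05 and 0.10 as deposited, and at 0.18 and 0.19 after quantile normalization. In that scaling all prepubertal arrays lay above all adult ones for COL1A2, while DCN overlapped. The part of such RNA in the results was not tested. In such bulk samples fewer cells of a type and less RNA per cell cannot be told apart.

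None of the 29 tested member probe sets passed an adjusted p of 0.05 in limma, where 0.475% of all tested probe sets passed, and none did after quantile normalization, where 0.117% passed. At an unadjusted p under 0.05 there were 4 member probe sets, all with lower values in prepubertal oocytes. That is 13.8% of 29, beside 13.6% of all tested probe sets with lower values at that p. After quantile normalization 1 of 29 was left, PDK3, which is 3.45% beside 5.81%. Groups did not overlap for 6 of 29 with all prepubertal arrays lower (20.7%, beside 17.1% of all tested probe sets), and for 0 with all prepubertal arrays higher (beside 1.81%). After quantile normalization they did not overlap for 2 with lower values (6.90%, beside 8.77%) and 1 with higher values (3.45%, beside 7.54%). These shares are near those of the whole array.

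**Figure D1:**
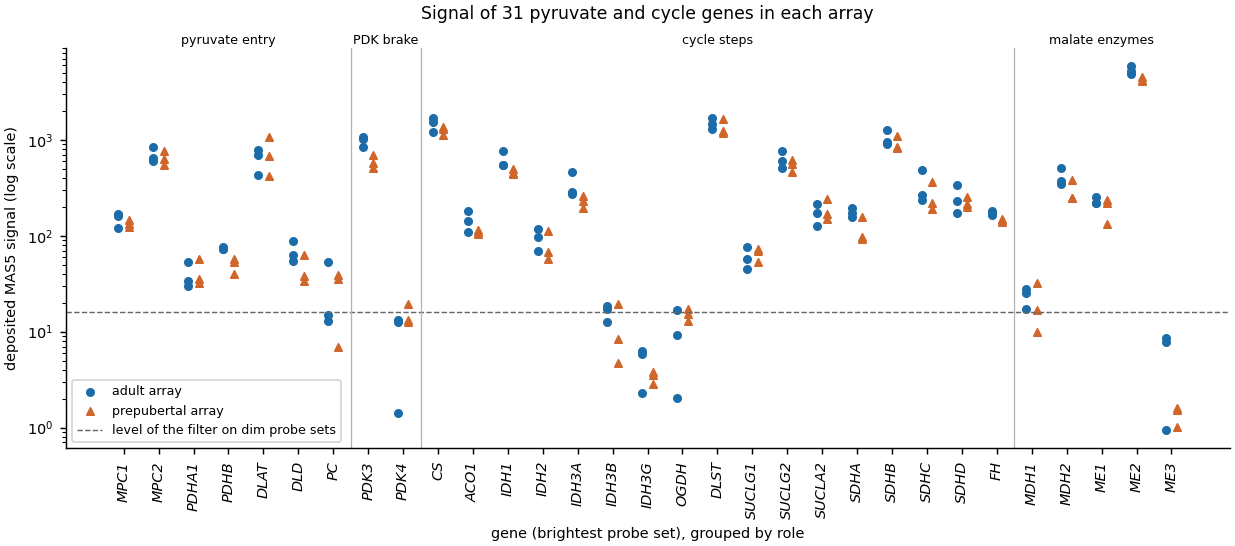
Deposited MAS5 signal (log axis) of the brightest probe set of each of the 31 measured genes, 3 adult arrays as circles and 3 prepubertal arrays as triangles, with the level of the filter on dim probe sets dashed. In PDK3 the 3 prepubertal arrays, at 510.4 to 689.9, sit below the 3 adult ones, at 841 to 1068; heights of different genes cannot be compared.

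The kinase that restrains pyruvate oxidation showed the largest difference of the 26 tested member genes. PDK3, whose product phosphorylates the E1 alpha subunit, had signals of 1068, 841 and 1010.0 in adult and 689.9, 510.4 and 579 in prepubertal oocytes. All prepubertal arrays lay below all adult arrays. The means were 973 ± 118 and 593 ± 90.6 (SD, n = 3 arrays each), a log2 difference of −0.70 ± 0.21, or 1.63-fold lower values, with a limma unadjusted p of 0.00283 and an adjusted p of 0.139. The 95% interval ran from −1.14 to −0.27. After quantile normalization the signals were 849, 899.9 and 923 against 670.2, 633 and 668, still without overlap. The difference was then −0.43 ± 0.12, 1.35-fold lower values (adjusted p = 0.192). Of all tested probe sets 4.35% had a lower difference as deposited and 7.64% after quantile normalization. Without prepubertal replicate 1, PDK3 passed as deposited (−0.81, adjusted p = 0.0237), in a fit where 658 of 12000 probe sets, or 5.48%, passed. After quantile normalization PDK3 did not pass without that array (−0.44, adjusted p = 0.115), nor without any other single array, in fits added after the data were seen.

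The other kinases were dim or not matched to a probe set. A second PDK3 probe set was dim, at 5.70 to 18.4 in adult and 1.73 to 18.5 in prepubertal oocytes. PDK4, the kinase known for its induction by fasting and fatty acids, had signals of 13.2, 12.7 and 1.42 in adult and 13.3, 12.8 and 19.3 in prepubertal oocytes by its brighter probe set. These values overlapped and lay at or under the filter in all but 1 array. The other PDK4 probe set was at 0.56 to 9.87 and 5.39 to 10.7. A statement about the kinases as a group therefore rests on PDK3.

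**Figure D2:**
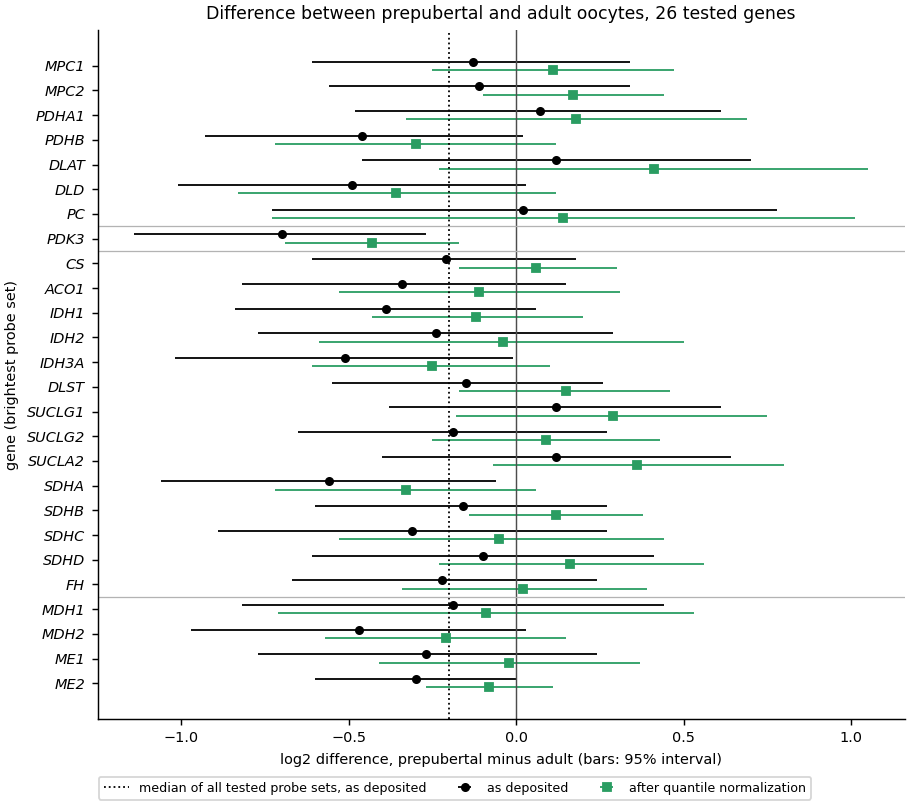
Log2 difference (prepubertal minus adult) of the 26 tested genes with its 95% interval, as deposited (black circles) and after quantile normalization (green squares), with lines between roles and the median of all tested probe sets as deposited dotted at −0.20. PDK3 is lowest both ways, and the interval of most other genes spans 0.

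On the way of pyruvate into the cycle, 7 of 8 genes were measured and all 7 were tested. As deposited 4 had lower and 3 higher values with a median of −0.11, and after quantile normalization 2 had lower and 5 higher values with a median of 0.14. MPC1, at a mean of 149.9 ± 26.7 in adult and 134 ± 11.2 in prepubertal oocytes, had a difference of −0.13 ± 0.23, and of 0.11 after quantile normalization. MPC2, its partner, had signals of 848, 605 and 645 in adult and 766, 545 and 626 in prepubertal oocytes. These overlapped, with a difference of −0.11 ± 0.22 (adjusted p = 0.84). After quantile normalization the sign turned to 0.17 ± 0.13, and its 3 prepubertal arrays lay above its 3 adult ones (adjusted p = 0.654). PC, the pyruvate carboxylase that refills the cycle with oxaloacetate, had the largest SE of the 26 tested genes, at 12.9, 14.98 and 52.8 against 6.88, 39.5 and 35.1, with a difference of 0.02 ± 0.36 that ranged from −0.21 to 0.43 as single arrays were left out. After quantile normalization it was 0.14 ± 0.40.

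The subunits of the pyruvate dehydrogenase complex did not share 1 direction of their values. PDHB, the E1 beta subunit, had signals of 77.3, 72.1 and 73.1 in adult and 57.5, 40.1 and 52.9 in prepubertal oocytes, without overlap. Its log2 difference was −0.46 ± 0.23 (adjusted p = 0.359), and −0.30 ± 0.19 after quantile normalization (adjusted p = 0.595), where the groups again did not overlap. DLD, the E3 subunit that the 2-oxoglutarate dehydrogenase complex also uses, had 87.4, 54.3 and 63.7 against 62.3, 33.7 and 37.8. Its groups overlapped through prepubertal replicate 1. The difference was −0.49 ± 0.25 (adjusted p = 0.371), and −0.36 ± 0.22 after quantile normalization.

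PDHA1, which carries the sites that PDK3 phosphorylates, had 53.5, 33.9 and 29.7 in adult and 57.5, 32.3 and 35.2 in prepubertal oocytes. Replicate 1 was the highest array in both groups, and the difference was 0.07 ± 0.26 (adjusted p = 0.929), and 0.18 ± 0.24 after quantile normalization. DLAT, the E2 core, had 781, 434 and 695 against 419.9, 671 and 1079.6. It spread 2.57-fold among the prepubertal arrays, and its difference was 0.12 ± 0.28 (adjusted p = 0.866) and 0.41 ± 0.30 after quantile normalization (adjusted p = 0.644). Without prepubertal replicate 1, DLAT passed after quantile normalization at 0.83 (adjusted p = 0.0498), in a fit where 213 of 12000 probe sets, or 1.77%, passed. As deposited that fit gave 0.45 (adjusted p = 0.273), and without prepubertal replicate 3 the difference was −0.21. After quantile normalization it ran from 0.06 to 0.83 as single arrays were left out, so its sign turned as deposited but not in that scaling.

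**Figure D3:**
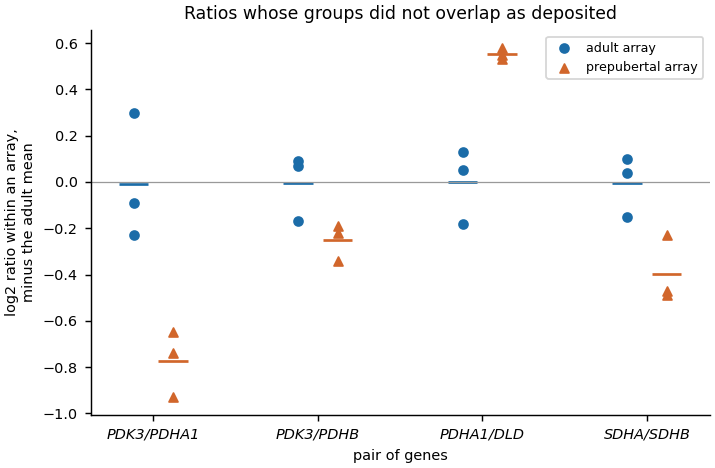
Log2 ratio of a pair of genes within each array, minus the adult mean (circles adult, triangles prepubertal, short lines the means). Only the 4 of 19 pairs whose groups did not overlap as deposited are drawn. How often other pairs of genes did not overlap was not computed. As deposited PDK3 relative to PDHA1 was lower by 0.77 on the log2 scale in prepubertal oocytes, and PDHA1 relative to DLD higher by 0.55.

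Ratios within an array remove part of the array's overall level, and were used to ask whether partners changed unequally. Because 16 was added before log2, the level does not cancel fully where a dimmer gene such as PDHA1 is set against a brighter one. The ratios are therefore given in both scalings. In all 19 pairs were compared: those within the pyruvate dehydrogenase complex, succinyl-CoA ligase and succinate dehydrogenase, and PDK3 against each measured subunit of its target. The ratio of PDK3 to PDHA1 was 3.96, 4.10 and 4.49 on the log2 scale in adult and 3.26, 3.45 and 3.54 in prepubertal arrays. The groups did not overlap, and the difference was −0.77 (1.70-fold; exact permutation p = 0.1, the smallest possible; 0.475 adjusted over the 19 pairs). PDHA1 relative to DLD differed by 0.55, PDK3 relative to PDHB by −0.25 and SDHA relative to SDHB by −0.40, each without overlap and at the same exact p of 0.1 (0.475 adjusted). After quantile normalization PDK3/PDHB overlapped and the other 3 did not. The differences were then −0.61 for PDK3/PDHA1, −0.13 for PDK3/PDHB, 0.54 for PDHA1/DLD and −0.45 for SDHA/SDHB. The pairs were described after their values were seen, and none passed its adjusted test. How often other pairs of genes on the array did not overlap was not computed, and pairs that share a gene are not independent.

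Among the cycle enzymes 17 of 17 genes were measured and 14 were tested. As deposited 12 had lower and 2 higher values, with a median of −0.22 beside −0.20 for all tested probe sets. After quantile normalization 6 had lower and 8 higher values, with a median of 0.04. Both medians lay near those of all tested probe sets, −0.20 and −0.01. CS, the citrate synthase that opens the cycle, had 1677, 1217 and 1531 in adult and 1352, 1134 and 1298 in prepubertal oocytes. The groups overlapped, at −0.21 ± 0.19 (adjusted p = 0.626) and 0.06 ± 0.11 after quantile normalization. The 95% interval of this last value ran from −0.17 to 0.30. A second CS probe set was at −0.40 ± 0.23 (adjusted p = 0.425), and at −0.16 after quantile normalization. ACO1, the cytosolic aconitase, had a mean of 145 ± 35.2 against 109.6 ± 5.18 (−0.34 ± 0.23, adjusted p = 0.509, −0.11 after quantile normalization), with its second tested probe set at −0.15 and −0.07.

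The isocitrate dehydrogenases that were tested all had lower values both ways. IDH3A, the catalytic subunit of the NAD-linked enzyme of the cycle, had 460.5, 273 and 286 in adult and 262, 194 and 229.9 in prepubertal oocytes. No prepubertal array reached the lowest adult one. The difference was −0.51 ± 0.24, 1.43-fold lower values (unadjusted p = 0.0468 in limma, adjusted p = 0.333). After quantile normalization the groups overlapped, at −0.25 ± 0.16 (adjusted p = 0.597). The second IDH3A probe set was dim, and so were the other subunits of this enzyme, IDH3B at 12.6 to 18.7 against 4.76 to 19.3 and IDH3G at 2.31 to 6.35 against 2.83 to 3.83. IDH1, the cytosolic NADP-linked enzyme, had a mean of 619.9 ± 123 against 463 ± 26.8 without overlap (−0.39 ± 0.22, adjusted p = 0.402), and −0.12 after quantile normalization with overlap. IDH2, its mitochondrial counterpart, was at −0.24 ± 0.25 and −0.04.

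In the middle of the cycle the differences of the tested genes ran from −0.19 to 0.12 as deposited, beside −0.20 for the whole array. The 2-oxoglutarate dehydrogenase complex was seen through DLST, its E2 core, at 1710.3, 1297 and 1475 in adult and 1239, 1184 and 1641 in prepubertal oocytes (−0.15 ± 0.20, adjusted p = 0.757; 0.15 after quantile normalization). OGDH, its E1 subunit, was dim at 2.06 to 16.8 and 12.8 to 17.3. Succinyl-CoA ligase joins a shared alpha subunit, SUCLG1, to an ADP-linked beta subunit, SUCLA2, or a GDP-linked one, SUCLG2. SUCLA2 had 213, 126 and 172 in adult and 167, 148 and 244 in prepubertal oocytes, overlapping, at 0.12 ± 0.25 (adjusted p = 0.854) and 0.36 ± 0.20 after quantile normalization (adjusted p = 0.531). SUCLG1 was at 0.12 ± 0.24 and 0.29 after quantile normalization, and SUCLG2 at −0.19 ± 0.22 and 0.09. All 3 genes of the ligase had values above 0 after quantile normalization, and none passed the test.

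**Figure D4:**
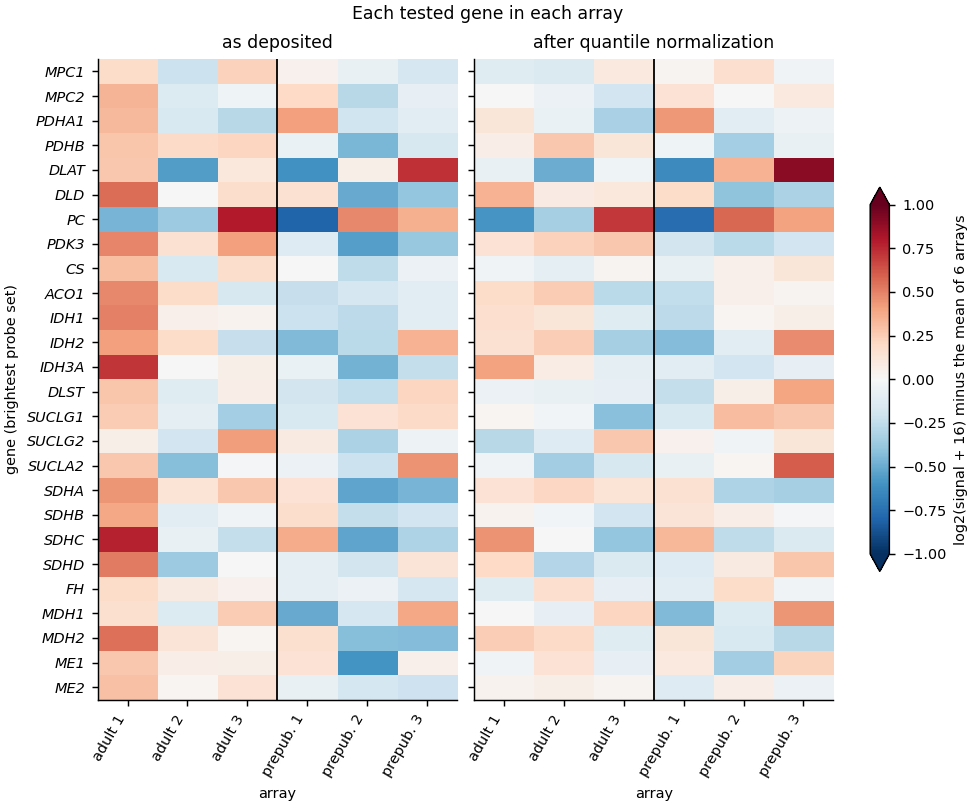
Each tested gene (rows, by role) in each array (columns) as log2(signal + 16) minus its mean over 6 arrays, red higher and blue lower, as deposited (left) and after quantile normalization (right). As deposited adult replicate 1 is red for 25 of 26 genes and prepubertal replicate 2 blue for 23 of 26; after quantile normalization these columns are mixed.

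Succinate dehydrogenase, which feeds electrons from the cycle into the respiratory chain, was measured through all 4 subunits. SDHA, the flavoprotein with the catalytic site, had 197, 156 and 172 in adult and 157, 92.5 and 97.6 in prepubertal oocytes. Prepubertal replicate 1 lay within the adult range and the other two lay below it. The difference was −0.56 ± 0.24, 1.48-fold lower values (unadjusted p = 0.029 in limma, adjusted p = 0.29), and −0.33 ± 0.18 after quantile normalization (adjusted p = 0.531). A second, dim SDHA probe set was at 2.76 to 27.6 in adult and 1.76 to 1.91 in prepubertal oocytes. SDHB, the iron-sulfur subunit, was at −0.16 ± 0.21, and the membrane anchors SDHC and SDHD at −0.31 ± 0.28 and −0.10 ± 0.25. After quantile normalization these were 0.12, −0.05 and 0.16. FH, the fumarase, had the smallest spread within groups of the tested cycle genes, at 182, 169.7 and 164 in adult and 147, 151 and 139 in prepubertal oocytes. The groups did not overlap, but the difference of −0.22 ± 0.22 (adjusted p = 0.676) was near the −0.20 of all tested probe sets, and it was 0.02 after quantile normalization.

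Of the genes acting on malate 5 of 5 were measured and 4 were tested, all 4 with lower values both ways, at a median of −0.28 as deposited and −0.09 after quantile normalization. ME2, the mitochondrial NAD-linked malic enzyme that turns malate back into pyruvate, had 5824, 4807 and 5257 in adult and 4519, 4217 and 4109 in prepubertal oocytes. All prepubertal arrays lay below all adult arrays. The difference was small, at −0.30 ± 0.14 or 1.23-fold lower values (unadjusted p = 0.0475 in limma, adjusted p = 0.334). After quantile normalization it was −0.08 ± 0.09 (interval −0.27 to 0.11), with overlap. MDH2, the mitochondrial malate dehydrogenase that closes the cycle, had 506, 375 and 345 against 382, 249 and 248. The groups overlapped, at −0.47 ± 0.24 (adjusted p = 0.371) and −0.21 ± 0.16 after quantile normalization. ME1, the cytosolic NADP-linked malic enzyme, was at −0.27 ± 0.24 and −0.02, with a second probe set at −0.31 and −0.16. MDH1, the cytosolic dehydrogenase of the malate-aspartate shuttle, was near the filter at 17.5 to 27.8 and 9.84 to 32.0 (−0.19 ± 0.30, and −0.09 after quantile normalization), and ME3, a mitochondrial malic enzyme, was dim at 0.94 to 8.60 and 1.00 to 1.61. The 4 tested enzymes that work in the cytosol, ACO1, IDH1, MDH1 and ME1, had a median of −0.30 (−0.10 after quantile normalization), and the 22 tested mitochondrial members one of −0.20 (0.08).

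**Figure D5:**
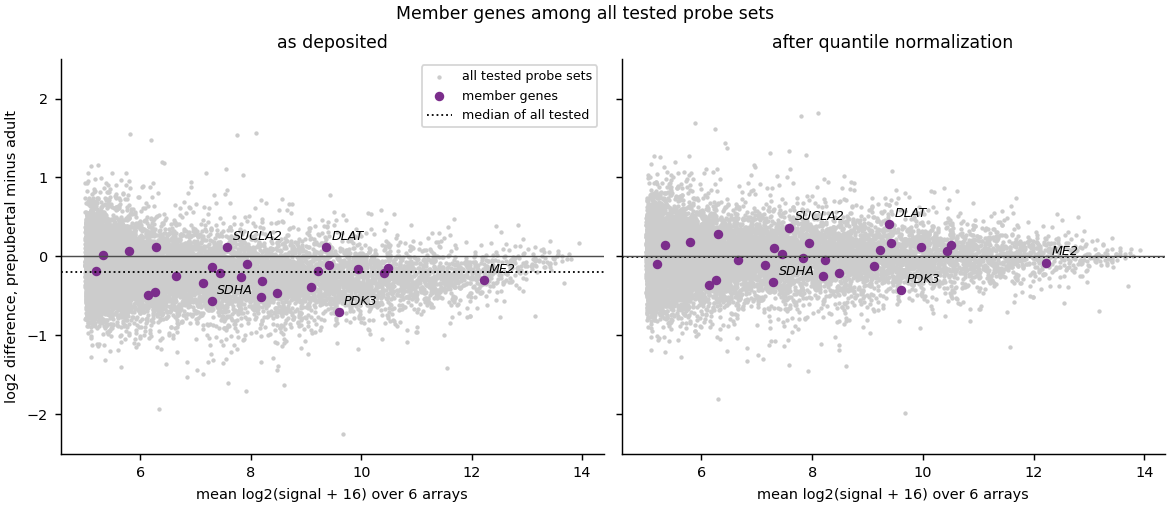
Log2 difference against mean log2(signal + 16) for the 12000 tested probe sets (grey) and the 26 member genes (purple), as deposited and after quantile normalization, with the median of all tested dotted. The members lie within the grey cloud in both panels, with PDK3 toward its lower edge.

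Over all 26 tested members the median difference was −0.22 as deposited (21 lower, 5 higher) and 0.00 after quantile normalization (13 lower, 13 higher), beside −0.20 and −0.01 for all tested probe sets. For 22 of 26 genes the 95% interval as deposited lay within a 2-fold change in either direction, as it did for 79.7% of all tested probe sets. The exceptions were PDK3, SDHA, IDH3A and DLD, whose intervals reached beyond a 2-fold lower value. After quantile normalization 24 of 26 intervals lay within those limits, and those of DLAT and PC reached beyond a 2-fold higher value.

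The wider pathway was read from a list of 50 further genes of lactate and pyruvate exchange, cofactor supply, mitochondrial carriers, transaminases and acetyl-CoA use, of which 29 were measured and 19 tested. None passed an adjusted p of 0.05 in limma in either scaling, and 1 as deposited and 3 after quantile normalization had an unadjusted p under 0.05. As deposited 14 of 19 had lower values (median −0.14) and after quantile normalization 6 of 19 (median 0.11). FASN, the fatty acid synthase, had 48.0, 25.1 and 29.9 in adult and 9.33, 14.4 and 19.1 in prepubertal oocytes. The groups did not overlap, at −0.72 ± 0.29 (adjusted p = 0.267) and −0.62 after quantile normalization, while its other tested probe set was at −0.31. LDHB, the lactate dehydrogenase subunit that favours pyruvate formation, had a mean of 4210 ± 907 in adult and 3301 ± 958 in prepubertal oocytes (−0.37 ± 0.19, adjusted p = 0.376; −0.10 after quantile normalization). Without prepubertal replicate 1 LDHB passed as deposited (−0.59, adjusted p = 0.0352), in the fit where 5.48% of all tested probe sets passed. After quantile normalization it did not pass with any single array left out (smallest adjusted p = 0.4255 in limma). SDHAF2, which attaches the flavin to SDHA, was at 0.63 ± 0.30 by one probe set (adjusted p = 0.342), with overlap. After quantile normalization that probe set was at 0.80 ± 0.30 (limma unadjusted p = 0.0212, adjusted p = 0.368), with all prepubertal arrays above all adult ones. The other SDHAF2 probe set was at −0.17 and −0.09. LDHC, a lactate dehydrogenase subunit known from germ cells, had the smallest p of the wider list after quantile normalization, at 0.40 ± 0.10 (limma unadjusted p = 0.00227, adjusted p = 0.173), with all prepubertal arrays above all adult ones. As deposited it was at 0.14 ± 0.18 (adjusted p = 0.755), with overlap.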

How the data were processed

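The table held 24123 probe sets, of which 124 Affymetrix controls were left out. The deposited intensity values are MAS5 signals per probe set and array, per the submitters' processing notes; its version and any scaling target were not given in the sources used here. Polyadenylated RNA was isolated on beads and, after 2 rounds of amplification, labelled with biotin, per the labels. The signal thus depends on poly(A) tails, which change as oocytes mature, and reports the 3′ ends of transcripts. The number of arrays limits the precision. A constant of 16 was added before log2, which understates the fold of dim genes. Probe sets with a mean log2 at or above the median were tested (12000 of 23999) in limma 3.58.1 (R 4.3.3; lmFit, and eBayes with its trend option) as the 2-sided difference of prepubertal from adult arrays, on the signals as deposited. The fit was tested on simulated data. Quantile normalization, other constants, filters and variance models, trimmed-mean scaling, a replicate block and leaving out each array were the alternatives. Symbols came from the platform's annotation; the lists of other genes used RefSeq symbols by Entrez identifier. The members and lists were chosen with earlier results of these data known. Every measured member is named; per-array values are given for the 6 genes with the smallest p as deposited and the 4 after quantile normalization, the PDK genes, PDHA1, CS and the gene with the brightest probe set of each role (a rule for naming only), and for some others chosen after their values were seen. Of the wider list the 3 genes with the smallest p as deposited are named, and LDHC, chosen after its values were seen. No value column was left without a sample.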

Additional observations from a re-analysis of the deposited data

How the results depend on the processing

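As deposited and under 9 of the 10 other planned settings that keep all arrays, 0 members passed an adjusted p of 0.05 in limma (4 probe sets at an unadjusted p under 0.05 as deposited). The exception was the replicate block, with 2 of 29 member probe sets, beside 918 of all 12000 tested. The 2 members were PDK3 (−0.70, adjusted p = 0.00704) and ME2 (−0.30, adjusted p = 0.0453). In that fit 1 gene of the wider list, LDHB, passed as well. The same-numbered arrays correlated weakly in their deviations from the group means (0.110, 0.058 and 0.029). Each array correlated best with its own number as deposited. After quantile normalization adult replicate 3 and prepubertal replicate 2 correlated best with each other (0.033, beside 0.030 and 0.019 with their own numbers). The numbers are not known to pair animals. The block raised the count of all probe sets from 57 to 918, and to 33 with quantile normalization, where no member passed. That count was 15 with a constant of 1, 1 without the filter, 173 with a stricter filter on dim probe sets, 14 after quantile normalization, 20 at a common trimmed mean and 1 without the intensity trend; the cause was not tested. Leaving out 1 array gave 3 to 658 for all probe sets, 0 to 1 for member probe sets and for member genes, and 0 to 1 for the wider list. The adjusted p of PDK3 ran from 0.0237 (without prepubertal replicate 1) to 0.481 (without adult replicate 1), with a difference of −0.81 to −0.60.

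Scaling moved the medians and turned 8 genes from values below 0 to values above 0. The pyruvate entry median was 0.14 after quantile normalization, also with the replicate block, and 0.15 at a common trimmed mean. The PDK median, which is PDK3 alone, was −0.43, −0.43 and −0.44 in these settings and −0.47 over both PDK3 probe sets. After quantile normalization, with or without the block, MPC1 was at 0.11, MPC2 at 0.17, CS at 0.06, DLST at 0.15, SUCLG2 at 0.09, SDHB at 0.12, SDHD at 0.16 and FH at 0.02. At a common trimmed mean they were at 0.11, 0.15, 0.05, 0.12, 0.07, 0.10, 0.15 and 0.03. PC was at −0.02 with a constant of 1. With single arrays left out the sign turned for PDHA1 (−0.12 to 0.25), DLAT (−0.21 to 0.45), PC (−0.21 to 0.43), MPC2 (−0.24 to 0.03), SUCLG1 (−0.02 to 0.27), SUCLA2 (−0.08 to 0.28), SDHD (−0.31 to 0.14) and MDH1 (−0.43 to 0.02). The constant of 64, no filter, the mean over probe sets and no intensity trend turned none of the 26 tested members. Signals near background limit PDK4, IDH3B, IDH3G, OGDH and ME3, whose differences depend on the added constant.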
